A study of Homo sapiens with 8 samples.

Results

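The transfer RNAs that read histidine, asparagine and aspartate codons (tRNA-His-GTG, tRNA-Asn-GTT and tRNA-Asp-GTC) were followed through ARP-seq libraries of a human embryonic kidney line. Their members were every reference of the tRNA and rRNA peak lists whose name holds one of these 3 anticodons. This gave 12 references among 156 cytosolic tRNA references and 1373 merged regions, and 67 peaks among 4746. A total of 9 of the 12 references were Asn-GTT, 2 were Asp-GTC and 1 was His-GTG. The study made 8 libraries in 4 groups of 2 from a line that the labels give as HEK-293 and the study's methods as HEK 293T. These were WT input, WT IP, KO input and KO IP, where KO stands for the ALKBH1 knockout and WT for cells with ALKBH1. Fragmented total RNA of all 4 groups was treated with the aldehyde-reactive probe, a biotin-bearing reagent that reacts with aldehydes such as 5-formylcytosine. The IP libraries hold what streptavidin then captured, and the input libraries hold RNA set aside before that capture. According to the study's methods, the knockout was made with CRISPR/Cas9 and grown from single sorted cells, so a difference between WT and KO can also be one between cell clones. The labels do not say that the 2 libraries of a group came from separate cultures. The study calls the replicates of this experiment biological, without saying what was grown or extracted separately, so p-values measure the spread between these libraries. Each peak carries a cDNA count, the number of unique molecules whose reverse transcription stopped in it, and the counts of a library summed to between 48380 and 285539. ALKBH1 itself had no listed peak in any library, so these lists do not check the knockout. The 2 libraries of a group correlated across shared regions at r between 0.934 and 0.972 on the log2 scale, and the chi-square statistic of their counts was between 3.93 and 6.52 per degree of freedom, so no group holds the same library a second time.

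In human cells the 3 tRNAs, together with tRNA-Tyr, carry the modified base queuosine at the first base of the anticodon. The enzyme complex of QTRT1 and QTRT2 exchanges the guanine there for queuine, a base that animals take from diet and microbes. On tRNA-Asp the queuosine receives a mannose and on tRNA-Tyr a galactose. Some of these tRNAs also carry 5-methylcytosine. TRDMT1 (DNMT2) methylates a cytosine in the anticodon loop of tRNA-Asp, and NSUN2 methylates cytosines at the junction of the variable and T arms of many tRNAs. ALKBH1 is a dioxygenase that can oxidise 5-methylcytosine to 5-formylcytosine in some tRNAs. THG1L adds an extra guanine to the 5′ end of tRNA-His, which its synthetase reads.

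The anticodon arms are shown first because they hold the base that groups these tRNAs. They were read from the GRCh38 genome at RefSeq gene coordinates (GRCh38.p14), and capitals mark the anticodon. Positions count from 1 at the 5′ end of the gene, and each window runs from 20 to 49. The anticodon took positions 34 to 36 in His-GTG and Asp-GTC, both 72 nt long, and 35 to 37 in Asn-GTT, 74 nt long. His-GTG-1-1 lies at chr1:146038063-146038092 on the plus strand, Asn-GTT-2-1 at chr1:148529276-148529305 on the plus strand and Asp-GTC-2-1 at chr1:161440848-161440877 on the minus strand.
His-GTG-1-1: tagtactctgcgttGTGgccgcagcaacct
Asn-GTT-2-1: ttagcgcgttcggctGTTaaccgaaaggtt
Asp-GTC-2-1: gagtatccccgcctGTCacgcgggagaccg

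The 3 families differed in how many sequences they hold. All 9 His-GTG-1 gene copies, on 4 chromosomes, gave 1 sequence, as did the 11 copies of Asp-GTC-2, on 4 chromosomes, and the 8 copies of Asn-GTT-2, on 5 chromosomes. The other references with a matched sequence were single genes that differed from the copy-rich one by 1 to 3 bases. Of the 12 references, 11 matched RefSeq genes by name. Asn-GTT-11, with 2 copies, did not and is described by its count only.

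In the Asp-GTC family, Asp-GTC-1-1 differs from Asp-GTC-2-1 by G20T and G56A, and Asp-GTC-3-1, which had no listed peak, by A24G and C31T. Capitals in the windows from 10 to 39 mark the bases that differ from Asp-GTC-2-1. They lie at chr1:161440858-161440887 (minus), chr12:98503512-98503541 (plus) and chr6:27583490-27583519 (minus).
Asp-GTC-2-1: gtatagtggtgagtatccccgcctgtcacg
Asp-GTC-1-1: gtatagtggtTagtatccccgcctgtcacg
Asp-GTC-3-1: gtatagtggtgagtGtccccgTctgtcacg

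In the Asn-GTT family, single bases in the middle of the tRNA separate isodecoders, which are tRNAs with 1 anticodon and different bodies. Asn-GTT-3-1 differs from Asn-GTT-2-1 by G27A, Asn-GTT-4-1 by G47A and Asn-GTT-5-1 by C41T. The windows run from 20 to 49 with these bases in capitals, at chr1:148529276-148529305 (plus), chr1:144419286-144419315 (plus), chr1:16889696-16889725 (plus) and chr1:16520610-16520639 (minus).
Asn-GTT-2-1: ttagcgcgttcggctgttaaccgaaaggtt
Asn-GTT-3-1: ttagcgcAttcggctgttaaccgaaaggtt
Asn-GTT-4-1: ttagcgcgttcggctgttaaccgaaagAtt
Asn-GTT-5-1: ttagcgcgttcggctgttaacTgaaaggtt

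The 3′ ends separate the others. Asn-GTT-1-1 differs from Asn-GTT-2-1 by G60T, Asn-GTT-6-1 by C17G and C65T, and Asn-GTT-9-1 by C41T and A68G. Asn-GTT-9-2, which had no listed peak, has these last changes and G50A. These windows run from 45 to 74, at chr1:148529301-148529330 (plus), chr1:161540285-161540314 (plus), chr1:143735920-143735949 (minus), chr1:145475381-145475410 (minus) and chr1:148048516-148048545 (minus).
Asn-GTT-2-1: aggttggtggttcgagcccacccagggacg
Asn-GTT-1-1: aggttggtggttcgaTcccacccagggacg
Asn-GTT-6-1: aggttggtggttcgagcccaTccagggacg
Asn-GTT-9-1: aggttggtggttcgagcccacccGgggacg
Asn-GTT-9-2: aggttAgtggttcgagcccacccGgggacg

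The peaks ended at or before these distinguishing bases. Reverse transcription copies an RNA from its 3′ end, so a molecule that stopped at a position carries the sequence 3′ of it. For each reference the last position was found at which that copied sequence occurs in no other nuclear tRNA gene. It was 30 for Asp-GTC-2, 1 base before C31T of Asp-GTC-3-1, and the 8 peaks ended at 29 or 30. It was 55 for Asp-GTC-1-1, whose peaks ended between 45 and 55. All 8 peaks of Asn-GTT-1-1 ended at 59, which is its last position. The last position was 26 for Asn-GTT-3-1, 40 for Asn-GTT-5-1, 64 for Asn-GTT-6-1 and 49 for Asn-GTT-9-1, and the highest peak ends were 26, 40, 64 and 49. His-GTG-1, which has no near relative, could be told apart up to 66, and its peaks ended at 63 or 64.

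Each of the 66 member peaks with a matched sequence ended at or before the last position, and 41 of them (62.1%) ended at most 1 nt before it. Among the other cytosolic tRNA references, 740 of 752 peaks (98.4%) ended at or before it, and 369 (49.1%) at most 1 nt before it. For 3 of the 11 references, Asp-GTC-2, Asn-GTT-3-1 and Asn-GTT-2, the last position lay before the anticodon, so no stop position in their listed peaks lies at the queuosine base. They held 4137 of the 7055 member counts of WT input (58.6%), and 32.9% of those of WT IP, 44.9% of KO input and 31.3% of KO IP. The 11 copies of the main aspartate tRNA were therefore counted only from molecules whose copying ran past the anticodon and stopped 5′ of it. Asn-GTT-2, with 8 gene copies, had only 13 counts in 1 library, WT input 1, in a peak from 21 to 25. The count of Asn-GTT-2 in these lists therefore does not measure the level of that tRNA.

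**Figure D1:**
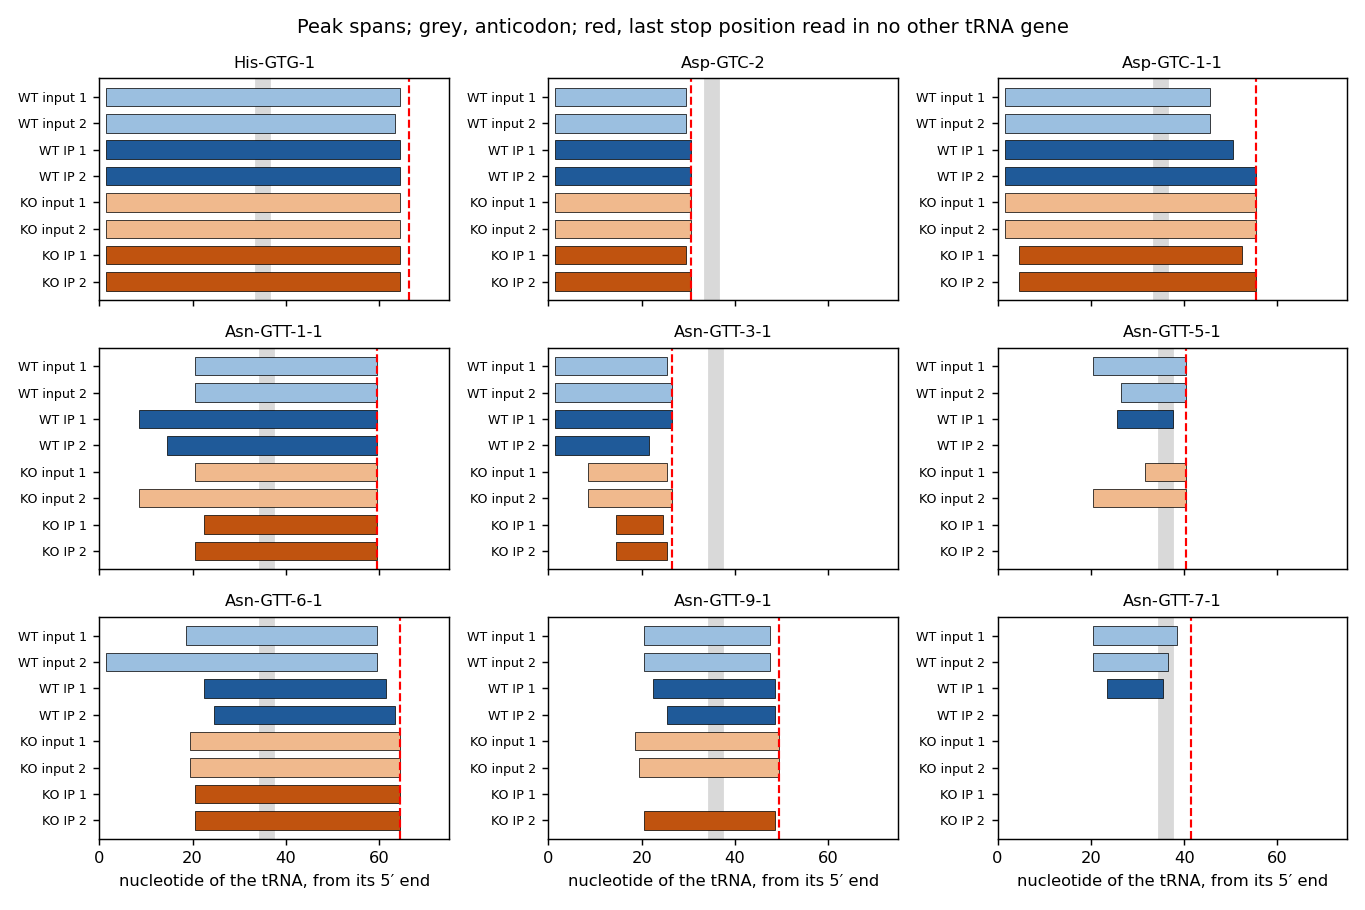
Span of each peak (horizontal bars, in nucleotides from the 5′ end of the tRNA) in each of the 8 libraries for 9 references, coloured by group. The grey band is the anticodon and the red line the last stop position whose copied sequence is in no other tRNA gene: Asp-GTC-2 peaks end at 29 or 30 and stop short of the anticodon, while His-GTG-1 peaks run to 63 or 64.

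Peak ends differed between the input groups for 4 of the 8 references listed in all 4 inputs. How often the ends of other tRNA references differ in this way was not counted, so this is a description only. In both WT inputs Asp-GTC-1-1 ended at 45 and in both KO inputs at 55. Asn-GTT-6-1 ended at 59 in WT input and 64 in KO input, Asn-GTT-9-1 at 47 and 49, and Asp-GTC-2 at 29 and 30. The ends were the same or overlapped for Asn-GTT-1-1 (59 in all inputs), Asn-GTT-3-1 (25 to 26 in both groups), Asn-GTT-5-1 (40 in all inputs) and His-GTG-1 (63 to 64 in WT and 64 in KO). The KO inputs were the deeper libraries, and the part of depth in these ends was not tested. Peak starts of Asn-GTT-3-1 were at 2 in the 4 WT libraries, at 9 in both KO inputs and at 15 in both KO IPs. Asp-GTC-1-1 began at 5 in both KO IPs and at 2 elsewhere.

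The histidine tRNA stood higher after capture than before it in both lines. In WT, His-GTG-1 had 985 and 959 counts before capture and 919 and 710 after it. In KO it had 2251 and 2876 before capture and 1068 and 1017 after it. In counts per 1000000 peak counts of the library (CPM), this was 10455 and 9783 against 14049 and 14676 in WT, and 11574 and 10072 against 19993 and 19506 in KO. Both IPs of a line stood above both inputs of that line, and the KO IPs stood above all other libraries. As a share of all cytosolic tRNA counts, a measure free of the scaling between libraries, His-GTG went from 2.95% ± 0.26 (SD, n = 2) in WT input to 4.20% ± 0.16 in WT IP, and from 3.93% ± 0.31 in KO input to 5.89% ± 0.27 in KO IP. The counting error was small beside these differences: the 95% Wilson interval ran from 2.95 to 3.34% in WT input 1 and from 5.74 to 6.45% in KO IP 1. These intervals cover counting error only. In none of the 4 comparisons did the shares of the groups overlap, and an exact permutation test, two-sided, gave p = 0.33 each time, which is the smallest that 2 against 2 libraries allow. In CPM the WT and KO inputs did overlap, so the difference between the input shares depends on the denominator. Lack of overlap was common: of the 36 anticodons listed in all 8 libraries, the shares of 75% did not overlap between WT IP and WT input, nor did those of 75% between KO IP and KO input, 77.8% between the IPs and 66.7% between the inputs.

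The aspartate tRNA went the other way in the WT line. Asp-GTC-2 had 2014 and 1832 counts before capture and 659 and 342 after it in WT, and 2469 and 2925 before and 634 and 481 after it in KO. In CPM this was 21376 and 18688 against 10075 and 7069 in WT, and 12695 and 10244 against 11868 and 9226 in KO. The WT inputs stood above all other libraries, while the KO IPs overlapped with both the KO inputs and the WT IPs. The Asp-GTC sum held 6.50% ± 0.96 (SD, n = 2) of cytosolic tRNA counts in WT input against 2.96% ± 0.94 in WT IP, and 4.77% ± 0.64 in KO input against 4.01% ± 0.89 in KO IP. Between the WT IPs and WT inputs and between the 2 input groups the shares did not overlap (exact permutation p = 0.33), while KO IPs and KO inputs overlapped (p = 0.667), as did WT IPs and KO IPs (p = 0.667).

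The single-gene Asp-GTC-1-1, whose peaks cover the anticodon, had 240 and 184 counts before capture and 113 and 58 after it in WT, and 367 and 425 before and 181 and 122 after it in KO. In CPM it had 2547 and 1877 against 1728 and 1199 in WT, and 1887 and 1488 against 3388 and 2340 in KO. Both WT IPs lay below both WT inputs, and both KO IPs lay above both KO inputs. How often other references separate like this in CPM was not counted. For shares of cytosolic tRNA counts, 75% of 36 anticodons did not overlap between IP and input in each line. The Asp-GTC-1-1 peaks also ended at 45 in the WT inputs and at 50 to 55 in the other libraries.

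The asparagine tRNAs had lower counts, spread over more references. Summed, Asn-GTT held 1.27% ± 0.09 (SD, n = 2) of cytosolic tRNA counts in WT input and 1.31% ± 0.01 in WT IP, and 1.27% ± 0.24 in KO input and 1.23% ± 0.001 in KO IP. The IPs and inputs of each line overlapped (exact permutation p = 1.0 in both lines). Asn-GTT-1-1 led, with 125 and 203 counts before capture and 138 and 133 after it in WT, and 244 and 535 before and 120 and 135 after it in KO. Its peak was above its inputs in CPM in both lines, from 2110 to 2749 against 1327 to 2071 in WT and from 2246 to 2589 against 1255 to 1874 in KO. Asn-GTT-3-1 had 148 and 130 counts before capture and 46 and 39 after it in WT, and 199 and 253 before and 69 and 47 after it in KO. In CPM the WT IPs, at 703 and 806, were the 2 lowest libraries for it, and the WT inputs, at 1571 and 1326, the 2 highest. These orderings of Asn-GTT-1-1 and Asn-GTT-3-1 in CPM were not counted over other references, so they are a description.

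The remaining Asn-GTT references were listed in fewer libraries or with lower counts, down to 10, the lowest the lists hold. Asn-GTT-6-1 was listed in all 8 libraries with 23 to 120 counts, and Asn-GTT-9-1 in 7 with 13 to 172 counts, all but KO IP 1. Asn-GTT-5-1 was listed in the 4 inputs and in WT IP 1, with 11 to 32 counts. Asn-GTT-7-1 was listed in both WT inputs, with 12 and 10 counts, and in WT IP 1 with 19. Asn-GTT-4-1 was listed in the WT IPs alone, with 11 and 14 counts, and Asn-GTT-11 in WT IP 1 with 10. A count of 10 was worth between 35 CPM in KO input 2 and 206.7 in WT IP 2, so a low peak missing from an IP does not show a lower level than in a KO input.

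**Figure D2:**
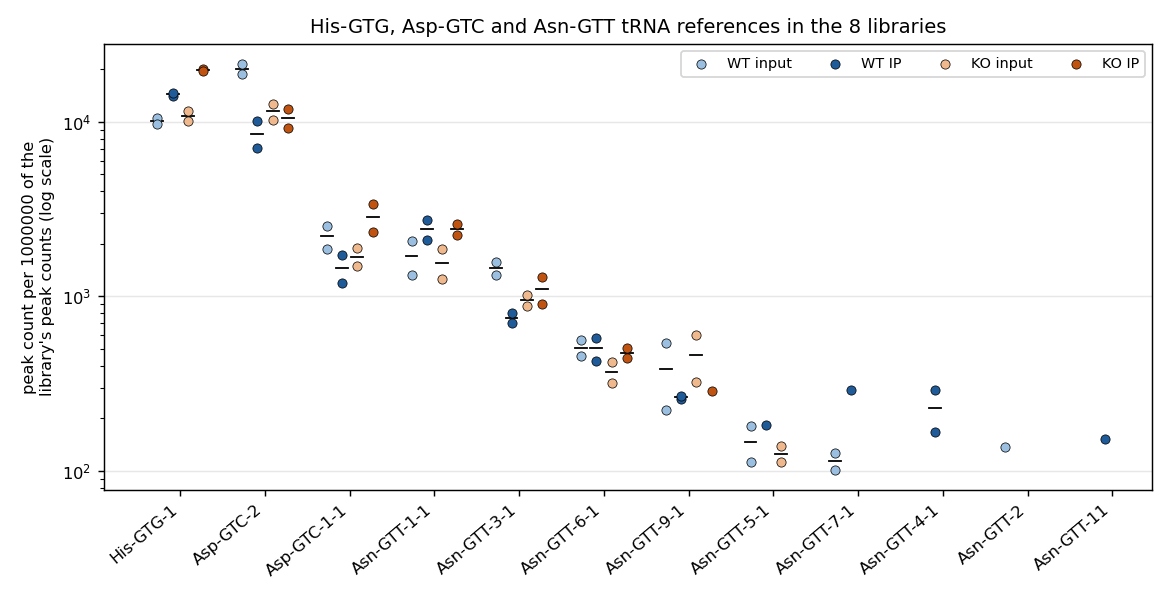
Peak count per 1000000 of the library's peak counts (log scale) of each reference in each library (points), coloured by group, with the mean of 2 libraries as a bar where both list it. His-GTG-1 is highest in the KO IPs, at 19993 and 19506, and Asp-GTC-2 in the WT inputs, at 21376 and 18688.

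Only regions listed in all libraries being compared entered the fits, which used edgeR's quasi-likelihood test, two-sided, with p-values adjusted by Benjamini-Hochberg over all regions tested. Values below are log2 fold changes ± SE, with 2 libraries a group. A region holds the counts of the peaks listed in it, so a fold can compare peaks of different span. Between WT IP and WT input, 48.1% of the 243 regions tested passed (56 higher, 61 lower), and so did 3 of the 7 members tested. His-GTG-1 was higher in the WT IPs by 0.44 ± 0.11 (adjusted p = 0.0295). Without WT input 1 it was 0.52 (adjusted p = 0.0602) and without WT input 2 it was 0.48 (adjusted p = 0.0914). Asp-GTC-2 was lower, at -1.29 ± 0.18 (adjusted p = 0.00618), and stayed past the threshold whichever library was left out. Asn-GTT-3-1 was lower too, at -1.01 ± 0.22 (adjusted p = 0.023), but leaving out any of the 4 libraries ended this call, with adjusted p of 0.206 without WT input 1, 0.116 without WT input 2, 0.08 without WT IP 1 and 0.0899 without WT IP 2. DESeq2 gave -0.87 (adjusted p = 0.191) and a mean count of at least 50 gave -0.72 (0.0558). The other 4 did not pass: Asp-GTC-1-1 at -0.66 ± 0.27 (adjusted p = 0.107), Asn-GTT-1-1 at 0.45 ± 0.31 (0.31), Asn-GTT-6-1 at -0.09 ± 0.28 (0.811) and Asn-GTT-9-1 at -0.60 ± 0.51 (0.397). With the replicate number as a block Asp-GTC-1-1 passed, at -0.67 (0.0275), and without WT input 1 Asn-GTT-9-1 passed, at -1.06 (0.0414). The methods state that the input was set aside from the probe-treated RNA that then went to capture, so an input and an IP of a line can share their RNA. The members' median was -0.60 and that of all regions -0.17.

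Between KO IP and KO input, 56.5% of the 246 regions tested passed (63 higher, 76 lower), and 1 of the 6 members tested. This was His-GTG-1, higher in the KO IPs by 0.77 ± 0.14 (edgeR adjusted p = 0.00401), which passed whichever library was left out. Asp-GTC-2 was at -0.22 ± 0.19 (adjusted p = 0.364). Leaving out KO input 2 gave -0.45 (adjusted p = 0.00344). For Asp-GTC-1-1 the call turned on the setting. It was at 0.67 ± 0.25 with TMM scaling (adjusted p = 0.0596) and passed with RLE scaling, at 0.72 (0.0464), with library totals, at 0.77 (0.0239), with DESeq2, at 0.72 (0.0401), with a mean count of at least 50, at 0.87 (0.0176), and with the replicate block, at 0.65 (0.0269). It also passed without KO input 1, at 0.82 (0.00718), and without KO IP 2, at 0.74 (0.0225). Asn-GTT-1-1 was at 0.54 ± 0.22 (0.076) and passed with a mean count of at least 50, at 0.74 (0.0494), and without KO input 2, at 0.76 (0.0393). The others were Asn-GTT-6-1, at 0.26 ± 0.23 (0.388), and Asn-GTT-3-1, at 0.10 ± 0.25 (0.75). The members' median was 0.40 and that of all regions 0.04.

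The comparisons across the lines ask whether the captured level differed between WT and KO. They cannot tell the loss of ALKBH1 from a difference between cell clones. Between WT IP and KO IP, 37.3% of the 220 regions tested passed (41 higher in WT, 41 lower, or 28 and 55 with library totals as the scale), and none of the 6 members passed with edgeR. At an unadjusted edgeR p under 0.05 there was 1 member, among 100 of all 220 regions. DESeq2 called 0 members, among 54 of all regions. Asp-GTC-1-1 was at -0.71 ± 0.30 (adjusted p = 0.0983), which passed with library totals as the scale, at -0.96 (adjusted p = 0.0355), with the replicate block, at -0.71 (0.00412), and without WT IP 1, at -1.0 (0.0164). His-GTG-1 was at -0.20 ± 0.11 (adjusted p = 0.18), and passed with library totals, at -0.46 (adjusted p = 0.0093), and with the block, at -0.21 (0.0281). The median of all regions moved from 0.03 to -0.22 between these scales, and relative to it His-GTG-1 was at -0.24 under both. Across the lines the block joins WT and KO libraries by number, and no source used here states such a pairing. Deviations of same-numbered libraries correlated at 0.306 between the IPs and at 0.17 between the inputs. Asp-GTC-2 was at -0.04 ± 0.20 (adjusted p = 0.871), so its level in the 2 IP groups was not distinguishable, with an SE of 0.20 on the log2 scale.

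The inputs of the lines, where no capture was involved, were compared in the same way. Of the 400 regions tested, 35.2% passed (62 higher in WT, 79 lower, or 38 and 21 with DESeq2), and 1 of the 8 members. Cytosolic tRNAs leaned towards WT as a class. Of their 113 regions, 30 passed as higher in WT and 7 as lower, and their median was 0.255. Asp-GTC-2 was higher in the WT inputs by 0.84 ± 0.18 (edgeR adjusted p = 0.0359). It did not pass without WT input 1 (0.75, adjusted p = 0.0532), WT input 2 (0.92, 0.0992), KO input 1 (0.96, 0.11) or KO input 2 (0.65, 0.0842). Asn-GTT-3-1 was at 0.64 ± 0.18 (adjusted p = 0.0531) and passed with RLE scaling, at 0.71 (0.0387), with library totals, at 0.60 (0.0468), with a mean count of at least 50, at 0.75 (0.0257), and with the replicate block, at 0.64 (0.0113). Asn-GTT-6-1 was at 0.51 ± 0.23 (0.141), while His-GTG-1 was at -0.06 ± 0.14 (0.753) and Asn-GTT-1-1 at 0.17 ± 0.29 (0.664). Asp-GTC-1-1 was at 0.43 ± 0.24 (0.208), Asn-GTT-5-1 at 0.27 ± 0.34 (0.551) and Asn-GTT-9-1 at -0.23 ± 0.52 (0.742).

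An interaction term over all 8 libraries asked whether the IP to input fold was the same in WT and KO. Of the 186 regions tested 30.1% passed (37 higher in WT, 19 lower, or 33 and 32 with RLE scaling and 21 and 48 with library totals), and none of the 6 members passed with edgeR. At an unadjusted edgeR p under 0.05 there were 3 members, among 74 of all 186 regions. DESeq2 called 1 member, Asp-GTC-2, among 51 of all regions. Asp-GTC-2 was at -0.71 ± 0.30 (edgeR adjusted p = 0.115), Asp-GTC-1-1 at -0.96 ± 0.39 (adjusted p = 0.104) and Asn-GTT-3-1 at -0.77 ± 0.32 (adjusted p = 0.115), each lower for WT. Asp-GTC-2 passed with RLE scaling, at -0.89 (adjusted p = 0.0464), with library totals, at -1.10 (0.0261), with a mean count of at least 50, at -0.94 (0.0341), with DESeq2, at -0.89 (0.0187), with the replicate block, at -0.74 (0.0182), without WT input 2, at -1.12 (0.0357), and without WT IP 1, at -1.26 (0.0224). Asp-GTC-1-1 passed with library totals, at -1.35 (0.0336), with a mean count of at least 50, at -1.19 (0.0477), with the block, at -0.97 (0.0148), without WT input 2, at -1.48 (0.0357), and without WT IP 1, at -1.53 (0.048). Asn-GTT-3-1 passed with library totals, at -1.15 (0.0293). Its peaks were 20 to 25 nt wide in the WT libraries, 17 and 18 nt in the KO inputs and 10 and 11 nt in the KO IPs. The peaks of Asp-GTC-1-1 differed in span between groups too, so neither fold covers the same bases in each group. Relative to the median of all regions, which moved from 0.04 to -0.14 and -0.34 with the scale, Asp-GTC-2 was at -0.75, -0.75 and -0.76. His-GTG-1 was at 0.02 ± 0.17 (adjusted p = 0.947), so this test did not show that the fold differed between the lines.

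**Figure D3:**
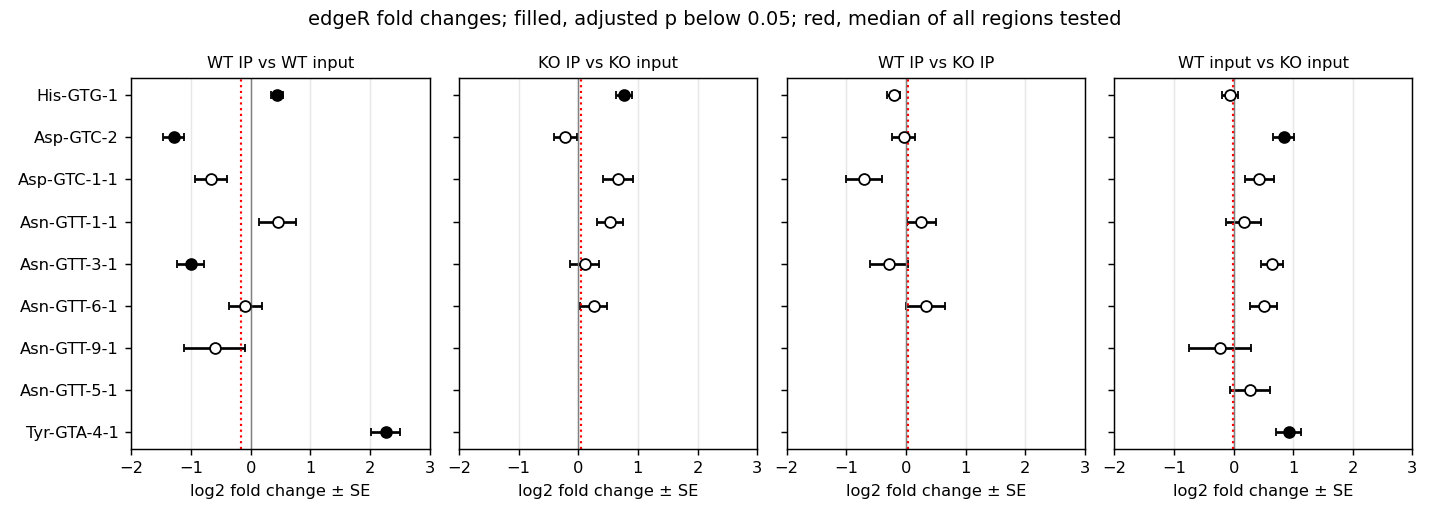
edgeR log2 fold change ± SE of each member reference, and of Tyr-GTA-4-1, in 4 comparisons. Filled points passed an adjusted p of 0.05 and the dotted red line is the median of all regions tested: Asp-GTC-2 is at -1.29 for WT IP against WT input and at 0.84 for WT input against KO input, and no member is filled for WT IP against KO IP.

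Peaks were also summed per anticodon and fitted again. In the fit of 189 summed features, of which 51.9% passed, Asp-GTC was lower in WT IP than in WT input by -1.16 ± 0.20 (edgeR adjusted p = 0.00327; without WT input 1, -1.14 and 0.0749), and Asn-GTT was at 0.02 ± 0.19 (adjusted p = 0.971). His-GTG, which is 1 reference but was scaled and adjusted anew in this fit, was higher by 0.49 ± 0.14 (0.0273), a call lost without WT input 1 (0.0893), WT input 2 (0.284) or WT IP 2 (0.0558). Between KO IP and KO input, where 56.5% of 193 passed, His-GTG was higher by 0.68 ± 0.15 (0.00579), while Asp-GTC was at -0.17 ± 0.19 (0.514) and Asn-GTT at 0.07 ± 0.17 (0.787). Without KO input 2 Asp-GTC passed, at -0.38 (0.0236). Between the IPs, where 41.5% of 171 passed, Asn-GTT was at 0.44 ± 0.15 (0.0695), Asp-GTC at -0.10 ± 0.21 (0.739) and His-GTG at -0.14 ± 0.10 (0.342). Between the inputs, where 28.6% of 332 passed, Asp-GTC was higher in WT by 0.86 ± 0.17 (0.0347), a call lost without WT input 1 (0.117), WT input 2 (0.0796) or KO input 1 (0.069). Asn-GTT was at 0.44 ± 0.15 (0.0811), which passed without KO input 2 at 0.59 (0.0417), and His-GTG was at 0.01 ± 0.12 (0.963). In the interaction, where 26.8% of 138 passed, Asp-GTC was at -0.63 ± 0.29 (0.132), Asn-GTT at 0.33 ± 0.27 (0.386) and His-GTG at 0.19 ± 0.20 (0.489). Of the 45 cytosolic tRNA sums tested between the inputs, 13 passed as higher in WT and 2 as lower.

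Ratios between 2 members of the same library need no scaling at all. They were chosen after the values above were seen and are a description. Asp-GTC-2 had 2.04 and 1.91 counts per His-GTG-1 count in WT before capture and 0.717 and 0.482 after it, and in KO 1.10 and 1.02 before and 0.594 and 0.473 after it. Both IP groups lay below their inputs, the WT inputs lay above the KO inputs, and the 2 IP groups overlapped. In log2 units the mean of the IPs was lower than that of the inputs by -1.75 in WT and by -0.99 in KO.

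Within the aspartate family, Asp-GTC-1-1 had 0.119 and 0.100 counts per count of Asp-GTC-2 in WT before capture and 0.171 and 0.170 after it, and in KO 0.149 and 0.145 before and 0.285 and 0.254 after it. The groups did not overlap in any of the 4 comparisons, and the ratio was higher after capture than before it in both lines. Only the peaks of Asp-GTC-1-1, of these 2 references, span the anticodon, so the pair was not measured over the same bases. Within the asparagine family, Asn-GTT-3-1 had 1.18 and 0.64 counts per count of Asn-GTT-1-1 in WT before capture and 0.33 and 0.293 after it, and in KO 0.816 and 0.473 before and 0.575 and 0.348 after it. Here the WT IPs lay below the 6 other libraries. The peaks of both Asn-GTT references also differed in span between libraries. Ratios without overlap were the common case: over all 3486 pairs of cytosolic tRNA references listed in all 8 libraries, the groups did not overlap for 80.4% between WT IP and WT input, 82.8% between KO IP and KO input, 66.8% between the IPs and 72.9% between the inputs.

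**Figure D4:**
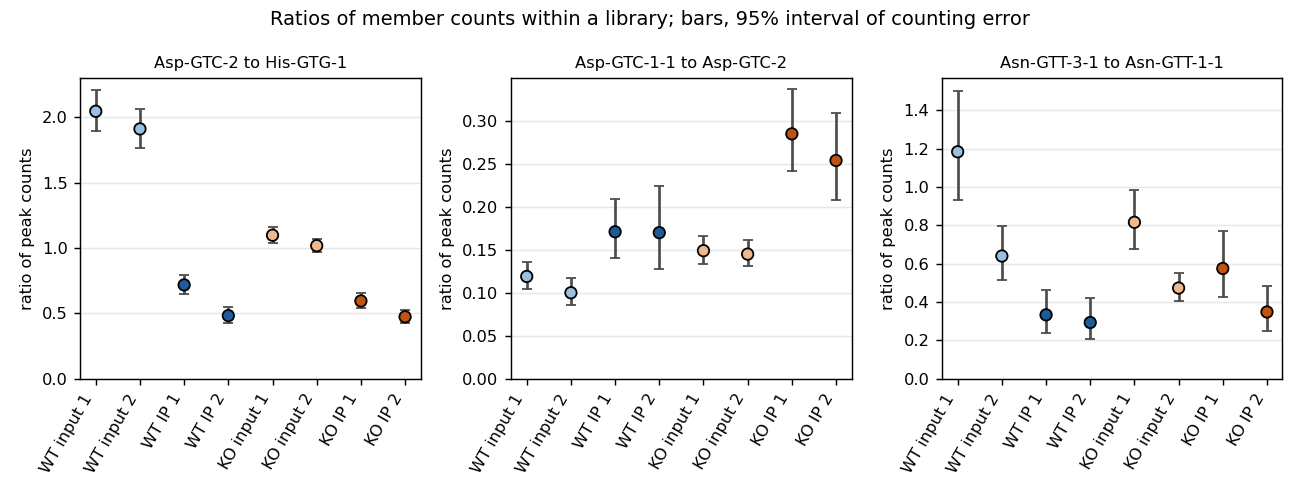
Ratio of the counts of 2 member references within each library (points, coloured by group), with the 95% interval of counting error. Asp-GTC-2 to His-GTG-1 is at 2.04 and 1.91 in the WT inputs and at 0.717 and 0.482 in the WT IPs, and Asp-GTC-1-1 to Asp-GTC-2 is highest in the KO IPs, at 0.285 and 0.254.

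The study's criteria for ARP-reactive peaks were applied to the members: above a score of 10 in both IPs, with no input peak or an IP to input ratio above 1.5, and then no peak in the KO IPs. Of the 8 WT members with peaks in both IPs, 1 met the first criteria and all of them, Asn-GTT-4-1, with its 11 and 14 counts. In CPM these were 168.2 and 289.4, and the listing minimum of the KO IPs was 187.2 and 191.8. The absence of Asn-GTT-4-1 from the KO IPs therefore does not show a lower level there. Of all 98 cytosolic tRNA peaks in both WT IPs, 29.6% met the first criteria and 5.1% all of them. His-GTG-1 had a mean WT ratio of 1.42 and Asn-GTT-1-1 one of 1.46, both under the 1.5 required. In the KO line 3 of 6 were above it: His-GTG-1 at 1.83, Asp-GTC-1-1 at 1.68 and Asn-GTT-1-1 at 1.59. Of all 89 such peaks in the KO IPs, 24.7% were. With a score above 100, or with an overlap of 50% between replicate peaks, no WT member was left.

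The fourth queuosine tRNA, tyrosine, had another pattern. Tyr-GTA-4-1 had 31 and 37 counts before capture and 106 and 94 after it in WT. In KO it had 39 and 52 before capture and was not listed after it. It was higher in WT IP than in WT input by 2.27 ± 0.24 (edgeR adjusted p = 0.00226) and higher in the WT than in the KO inputs by 0.93 ± 0.21 (adjusted p = 0.0383). The input call was lost with DESeq2 (0.346), with unlisted regions counted as 0 (0.057), and without WT input 1 (0.0675), WT input 2 (0.11), KO input 1 (0.142) or KO input 2 (0.163). In CPM the WT IPs stood at 1621 and 1943, against a listing minimum of 187.2 and 191.8 CPM in the KO IPs. No test between Tyr-GTA and the members was made.

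Across the 8 libraries, the cytosolic anticodons whose log2 CPM was most like that of each member were Ile-TAT (Pearson r = 0.926), Arg-TCG (0.825) and Glu-TTC (0.82) for His-GTG, Pro-TGG (0.877), Lys-CTT (0.811) and Gly-GCC (0.76) for Asp-GTC, and Thr-TGT (0.711), Arg-CCT (0.644) and Arg-TCG (0.63) for Asn-GTT, out of 35 anticodons compared. These are descriptions over 8 libraries that share groups and a scale. None of the 3 was among these nearest anticodons of another. Tyr-GTA, not listed in the KO IPs, was not among the anticodons compared.

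Reads that did not map to the tRNA references could still give peaks at the nuclear genes. None of the 9 His genes had such a peak, 1 of 13 Asp genes had 1 (TRD-GTC1-1 in KO input 2, with 11 counts), and 8 of 19 Asn genes had 24, of 11 to 61 counts. TRN-GTT1-1 was listed in all 8 libraries, with 38 and 18 counts before capture and 35 and 14 after it in WT, and 20 and 35 before and 11 and 11 after it in KO. Its peaks began upstream of the first base of the gene in the WT IPs and the KO inputs, where a mature tRNA has no sequence. TRN-GTT9-1 was listed in the 4 inputs alone, with 40, 18, 61 and 33 counts. None of 9 genes whose products modify or charge these tRNAs, among them QTRT1, QTRT2, TRDMT1, NSUN2 and THG1L, had a listed peak. Genes without a listed peak are not shown to be unexpressed, since the lists hold only clusters of at least 10 counts.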

How the data were processed

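According to the methods, the authors ran iCount: molecular identifiers collapsed PCR duplicates, STAR mapped reads to tRNA and rRNA and the rest to GRCh38, and Paraclu called peaks in each library separately. The deposited value is the count of cDNAs in a peak, not normalized, and the lowest listed count is 10. Uniqueness was required at the genome step, and how reads shared by isodecoders were treated at the tRNA step is not given in the sources used here. Overlapping peaks (at least 1 nt, same strand) were merged into regions, and CPM used the summed peak counts of a library.

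Differential testing of regions listed in all libraries being compared used edgeR 4.0.16 under R 4.3.3 (TMM, quasi-likelihood, Benjamini-Hochberg, threshold 0.05), with DESeq2 1.42.0 as an alternative. SE was the log2 fold change divided by the square root of F. On simulated counts with 20 regions changed by a fold of 4 in each of 10 sets, between 88.5 and 99% were recovered and between 1.63 and 9.23% of calls were wrong, over the 5 comparisons. In the edgeR fits with TMM every member fold was under 4, the largest being -1.29 on the log2 scale. The simulated rates therefore do not apply to the members. Shares and ratios were tested over libraries with exact permutation tests. Each file holds 1 library, and its group came from its label. Gene sequences came from the hg38 FASTA at RefSeq coordinates. RefSeq gave no strand, so the strand was the one with the anticodon and T arm in place. The position offset between deposited references and genes is not stated and was taken as 0.

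Every isodecoder of the 3 anticodons is accounted for, and Tyr-GTA, the nuclear genes, 4 mitochondrial tRNAs and 9 pathway genes were looked up whatever their values. A further result is not reported here. The members and lists were chosen with earlier results of these data known.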

Additional observations from a re-analysis of the deposited data

Results flagged for a closer look

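The mitochondrial tRNAs of the same amino acids, which carry queuosine too, lie outside the comparisons above. Those for asparagine, histidine and tyrosine stood above the inputs of their line. That for aspartate did not when all peaks of the gene were summed. Other mitochondrial tRNAs were not counted here, so nothing particular to these 4 is shown. Of all regions in the edgeR fits, 56 of 243 passed as higher in the WT IPs and 63 of 246 in the KO IPs. MT-TN, the mitochondrial asparagine tRNA (chrM:5657-5729, minus strand), had 66 and 35 counts after capture in WT, where it was not listed before capture. In KO it had 67 and 41 after capture and 15 and 16 before. This was 866.2 CPM ± 201.95 (SD, n = 2) in the WT IPs and 1020.3 ± 330.78 in the KO IPs, against 66.6 ± 14.92 in the KO inputs. The 4 IP peaks lay between positions 33 and 37 of the gene, and its anticodon takes 34 to 36. The KO input peaks lay between 35 and 43. MT-TH, the mitochondrial histidine tRNA, was in peaks of 19764 CPM ± 1992.98 in the WT IPs and 36562 ± 1796.55 in the KO IPs, against 8728.1 ± 380.42 and 16834.5 ± 63.92 in the inputs. These peaks run past the gene, in the inputs as far as position 12289, while the gene ends at 12206, so the values are not of MT-TH alone. MT-TY, the tyrosine one, stood at 8006.8 CPM ± 156.91 in the WT IPs and 18084.1 ± 104.51 in the KO IPs, against 4784.4 ± 71.77 and 7200.8 ± 367.06 in the inputs, whose peaks were wider than the WT IP ones. The MT-TY peaks of the WT IPs lay between positions 31 and 42, overlapping an anticodon at 30 to 32. Those of the KO IPs ran from 30 to 69 and those of the inputs reached 70, past the 66 nt of the gene. The MT-TY values of the groups therefore do not cover the same bases. MT-TD was listed in 1 IP of each line, at 168.2 CPM in WT and 243.4 in KO, below the 1292.9 ± 162.35 and 966.8 ± 262.12 of the inputs. These IP peaks lay at positions 31 to 32 of the gene with an anticodon at 31 to 33. The input values of MT-TD also hold peaks that start before the first base of the gene, so they do not cover the same bases. The only input peak at 31 to 32 alone, in WT input 1, had 10 counts, or 106.1 CPM.

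At the nuclear genes, TRN-GTT2-6 on chromosome 19 was listed in the WT IPs alone, with 13 and 27 counts, or 378.4 CPM ± 254.1 (SD, n = 2). TRN-GTT1-1 stood at 208.4 CPM ± 3.58 in the KO IPs and at 112.7 ± 13.96 in the KO inputs, from 11 counts in each IP. The lowest listed peak of the KO IPs was worth 187.2 and 191.8 CPM, so a peak listed there had to lie above those inputs. None of these differences was tested.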

How the results depend on the processing

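Outside the runs that leave out 1 library, 230 of 294 recomputed folds kept their direction and their side of the threshold. Counts of regions or peaks called were within 1.5 times the first value in 54 of 75 cases, and log2 ratios of shares within 1 SD in 14 of 24. The lists hold no peak under 10 counts, groups hold 2 libraries, and some Asn-GTT references had counts at or near that minimum. Counting unlisted regions as 0 raised the regions called to 333 (WT IP against WT input), 522 (KO IP against KO input), 199 (IPs), 356 (inputs) and 90 (interaction), and the anticodon features to 299, 470, 186, 321 and 72. It tested more regions, and these include peaks missing at low depth. DESeq2 called fewer: 54 regions for the IPs and 59 for the inputs, and 44 and 57 anticodon features, where the cause was not tested. With library totals, calls of anticodon features went to 22 higher and 48 lower for the IPs and to 16 and 36 for the interaction, from 37 and 34 and from 30 and 7. RLE gave 26 and 21 for the interaction, and DESeq2 26 and 25. DESeq2 also gave 39 higher and 18 lower for the inputs, from 41 and 54. Filters on low values changed the anticodon sums where stated next. With a mean count of at least 50, Asn-GTT passed between the IPs (0.617, adjusted p = 0.0198), and Asp-GTC passed in the interaction (-1.056). The latter also passed with library totals (-1.173) and DESeq2 (-0.858). The His-GTG sum passed between the IPs with totals (-0.46, adjusted p = 0.0141).

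No value that changed sign under these settings passed the threshold before or after. For WT IP against WT input these were Asn-GTT-6-1 with RLE (0.041) and DESeq2 (0.047) and the Asn-GTT sum with unlisted at 0 (-0.008). For KO IP against KO input it was the Asp-GTC sum with totals (0.029) and a mean of 50 (0.072). For the IPs, a mean of 50 turned Asp-GTC-2 (0.099), the Asp-GTC sum (0.074) and the His-GTG sum (0.036). For the inputs His-GTG-1 turned with RLE and DESeq2 (0.014 in both) and a mean of 50 (0.049), and the His-GTG sum with totals (-0.097) and unlisted at 0 (-0.101). In the interaction His-GTG-1 turned with RLE (-0.154), totals (-0.363), DESeq2 (-0.156), unlisted at 0 (-0.309) and a mean of 50 (-0.199), and the His-GTG sum with the same settings (-0.036, -0.363, -0.038, -0.315 and -0.235). Asn-GTT-1-1 turned with totals (-0.114) and unlisted at 0 (-0.045), and the Asn-GTT sum with totals (-0.208), unlisted at 0 (-0.156) and a mean of 50 (-0.07).

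The replicate numbers are in the labels. Per the methods an input and an IP are parts of 1 treated RNA, but no source used here ties this to the numbers. None pairs WT with KO libraries. The deviations of same-numbered libraries correlated at 0.494 between WT input and WT IP, at 0.234 between KO input and KO IP, and between -0.053 and 0.442 for the other 4 pairs of groups. With the replicate number as a block, 136 regions were called for WT IP against WT input, 142 for KO, 116 for the IPs, 208 for the inputs and 70 for the interaction, and 182 anticodon features for the inputs. Asn-GTT passed between the IPs (0.439, adjusted p = 0.0382) and the inputs (0.442, 0.00906), and Asp-GTC in the interaction (-0.641, 0.029). Among single references the block added Asp-GTC-1-1 for WT IP against WT input (adjusted p = 0.0275), KO IP against KO input (0.0269), the IPs (0.00412) and the interaction (0.0148). It also added His-GTG-1 between the IPs (0.0281), Asn-GTT-3-1 between the inputs (0.0113) and Asp-GTC-2 in the interaction (0.0182).

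Leaving out 1 library at a time gave between 46 and 97 regions called for the IPs, 0 and 82 for the inputs and 33 and 67 for the interaction. For the anticodon sums it gave 57 to 94 features for WT IP against WT input, 0 to 74 for the IPs, 0 to 84 for the inputs and 14 to 38 for the interaction. The counts of 0 came from edgeR with 1 library left in a group, taken to vary like the others. In the region fits of the inputs they arose without WT input 2, KO input 1 or KO input 2, where 184, 150 and 149 regions had an unadjusted p under 0.05. The anticodon sums ran between -0.171 and 0.208 for Asn-GTT and -1.322 and -0.975 for Asp-GTC in WT IP against WT input. The His-GTG sum ran from 0.412 to 0.642 there and from -0.122 to 0.062 between the inputs. In KO IP against KO input Asn-GTT and Asp-GTC ran between -0.116 and 0.175 and between -0.379 and -0.009. Between the IPs Asp-GTC ran from -0.332 to 0.137. Between the inputs Asn-GTT ran from 0.22 to 0.586 and Asp-GTC from 0.681 to 0.978, and in the interaction Asn-GTT from -0.04 to 0.493. Single references that changed sign in these runs were Asn-GTT-6-1 (-0.203 to 0.187) and Asn-GTT-9-1 (-1.064 to 0.265) for WT IP against WT input, Asn-GTT-3-1 (-0.086 to 0.182) for KO IP against KO input and Asp-GTC-2 (-0.324 to 0.223) for the IPs. For the inputs they were Asn-GTT-1-1 (-0.21 to 0.455), Asn-GTT-5-1 (-0.1 to 0.557) and Asn-GTT-9-1 (-1.029 to 0.266). In the interaction they were Asn-GTT-1-1 (-0.081 to 0.483), Asn-GTT-6-1 (-0.238 to 0.148) and His-GTG-1 (-0.336 to 0.096).

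Shares of cytosolic tRNA counts were compared as log2 ratios of group means. With all peak counts as the denominator His-GTG moved to 0.868 for KO IP against KO input and -0.097 for the inputs, Asn-GTT to 0.249 for KO IP against KO input, 0.121 for the IPs and 0.329 for the inputs, and Asp-GTC to 0.758 for the inputs. With peaks above a score of 100 His-GTG moved to 0.775 for KO IP against KO input, and Asn-GTT to -0.306 for WT IP against WT input, -0.425 for KO and -0.067 for the IPs. Under the study's filter, a score above 100 or an overlap of 50% left 0 WT members, and a ratio above 2 or unscaled counts left 0 KO members.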
